A study of Mus musculus with 24 samples.

Results

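The genes described here build, move and anchor the actin cytoskeleton: 41 genes for actins, their transcriptional regulator SRF, tropomyosins, non-muscle myosin II, focal adhesion adaptors, LIM-domain proteins, monomer-binding and turnover factors, capping protein and the Arp2/3 complex. They are the rows of the deposited table of mouse gene expression whose symbol is on a fixed list. All 41 symbols were found among the 23235 rows, and all 41 reached a mean of 1 FPKM over the 8 columns, as did 10262 genes in all. FPKM is a number of sequenced fragments scaled by transcript length and library size, so levels can be set side by side between genes. The list was selected on these same FPKM values, with the fusion's difference from PBS in view, so the levels and ratios below are a description and no test is given.

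RNA was sequenced from T11, a claudin-low line derived from a mouse tumour of the mammary gland, here with a luciferase gene. Cells grown in medium with little serum received PBS or 1 of 3 agents at 5 µM, namely Omomyc, FPP-1746 and FPP-1746-Omomyc, for 3 h or 6 h. Omomyc derives from the part of MYC that pairs with MAX, with changed residues that let it take the place of MYC on MAX and on DNA. FPP-1746 helps cargo enter cells, and FPP-1746-Omomyc, called the fusion here, joins the pair. Each of the 8 groups had 3 replicates, 24 samples in all, and all groups share the 1 cell line, so nothing here speaks of another line. Only the mean of each group was used, so no value below has a replicate check and no p-value is given. The fusion samples titled 6 h carry a treatment tag of 3 h, and the title was followed. Of the markers set for the cells, 5 of 5 mesenchymal genes were at 1 FPKM or more and 0 of 8 epithelial genes were. The epithelial sum was 0.0308 to 0.177 FPKM, with Epcam, Krt18 and Cldn3 listed at 0 in every column.

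Actin polymerises from monomers into filaments, and the pool of free monomers feeds back on how much actin is made. Free actin holds the cofactors MRTF-A and MRTF-B (genes Mkl1 and Mkl2) away from SRF. When monomers are used up, these cofactors join SRF on CArG boxes, the short AT-rich elements before many actin, myosin and focal adhesion genes. Filaments pull through non-muscle myosin II, are coated by tropomyosins, and are tied to integrins at focal adhesions by talin, vinculin, zyxin and alpha-actinin. Cells of mesenchymal character, such as claudin-low tumour cells, use this machinery to spread and move.

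CArG boxes were looked for in the promoters, because they are the element through which SRF acts on genes of this kind. RefSeq promoters of GRCm38.p6 were matched to 40 of the 41 genes, all but Actb, 2 of them by a newer symbol, and each was read from 250 bases before to 50 bases after the start of transcription. A box was found in 7 of the 40 (17.5%), against 1.81% of all 27025 genes in the promoter table and 1.66% of the 7334 of them matched by symbol to a gene at the minimum level. On all 32851 promoters, of which a gene can have more than 1, the share was 1.63%. The 7 genes were Srf, Vcl, Fhl1, Fhl2, Lima1, Actg1 and Myl6. Srf had a pair of boxes, beginning 82 and 62 bases before its start. The others began 227 (Vcl), 102 (Fhl1), 96 (Fhl2), 47 (Lima1) and 90 (Actg1) bases before the first listed start. Fhl2 had another box 31 bases before the second of its listed starts, and Myl6 had its only one 50 bases before its second. The 250 bases before each of these starts are printed, so that the boxes, in capitals, can be seen in place. A match is only a run of letters and does not show that SRF binds there. The E-box CACGTG, the element that MYC and MAX bind, was in 4 of the 40 promoters (10.0%), in 8.09% of all genes and in 12.6% of those at the minimum level. The motif GGAATG, which TEAD factors bind, was in 10 of the 40, in 16.6% of all genes and in 14.1% of those at the minimum level. Both strands were searched for each.
Srf, chr17:46556163-46556412, minus strand: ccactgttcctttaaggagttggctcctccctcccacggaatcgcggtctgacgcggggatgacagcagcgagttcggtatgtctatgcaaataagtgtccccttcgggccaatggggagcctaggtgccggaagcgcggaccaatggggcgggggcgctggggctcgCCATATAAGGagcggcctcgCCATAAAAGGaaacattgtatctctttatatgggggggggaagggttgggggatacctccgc
Vcl, chr14:20929148-20929397, plus strand: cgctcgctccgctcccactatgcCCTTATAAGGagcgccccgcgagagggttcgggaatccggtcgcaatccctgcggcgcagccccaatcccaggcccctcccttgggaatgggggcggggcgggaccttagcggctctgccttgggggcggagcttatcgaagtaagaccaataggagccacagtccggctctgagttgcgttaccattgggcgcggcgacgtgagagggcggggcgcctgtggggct
Fhl1, chrX:56779433-56779682, plus strand: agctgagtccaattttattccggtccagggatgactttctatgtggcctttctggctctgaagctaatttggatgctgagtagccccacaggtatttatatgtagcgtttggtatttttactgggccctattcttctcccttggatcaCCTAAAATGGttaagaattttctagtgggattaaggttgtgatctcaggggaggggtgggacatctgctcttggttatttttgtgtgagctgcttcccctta
Fhl2, chr1:43196762-43197011, minus strand: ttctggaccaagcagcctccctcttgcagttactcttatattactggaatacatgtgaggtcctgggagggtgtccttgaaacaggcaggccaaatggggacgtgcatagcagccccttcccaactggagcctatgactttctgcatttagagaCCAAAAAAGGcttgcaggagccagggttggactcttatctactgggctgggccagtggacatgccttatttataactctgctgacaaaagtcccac
Fhl2, second start, chr1:43163962-43164211, minus strand: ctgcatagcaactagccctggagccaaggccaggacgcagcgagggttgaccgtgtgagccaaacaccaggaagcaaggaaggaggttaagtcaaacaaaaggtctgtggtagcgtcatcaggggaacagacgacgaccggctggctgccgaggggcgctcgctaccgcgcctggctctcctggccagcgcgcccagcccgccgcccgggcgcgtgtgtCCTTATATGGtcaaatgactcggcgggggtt
Lima1, chr15:99820150-99820399, minus strand: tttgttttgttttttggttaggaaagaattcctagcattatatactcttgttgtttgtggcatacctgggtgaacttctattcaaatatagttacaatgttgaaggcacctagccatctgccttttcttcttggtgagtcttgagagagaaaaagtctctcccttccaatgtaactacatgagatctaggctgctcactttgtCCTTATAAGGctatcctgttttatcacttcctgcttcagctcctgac
Actg1, chr11:120348496-120348745, minus strand: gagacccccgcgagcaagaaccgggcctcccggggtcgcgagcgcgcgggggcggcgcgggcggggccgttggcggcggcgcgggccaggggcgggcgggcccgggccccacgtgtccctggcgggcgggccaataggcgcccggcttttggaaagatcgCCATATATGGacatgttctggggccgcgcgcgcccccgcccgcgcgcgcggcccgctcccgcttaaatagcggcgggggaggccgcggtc
Myl6, second start, chr10:128493010-128493259, minus strand: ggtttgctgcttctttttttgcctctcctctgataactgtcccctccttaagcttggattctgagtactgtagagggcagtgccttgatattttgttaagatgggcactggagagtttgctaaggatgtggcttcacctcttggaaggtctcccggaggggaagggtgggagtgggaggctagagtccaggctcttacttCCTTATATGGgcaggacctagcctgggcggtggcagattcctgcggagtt

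Srf encodes the serum response factor itself. Its mean was 155 FPKM in PBS, 194 in Omomyc, 193 in FPP-1746 and 75.3 in the fusion at 3 h, and 56.5, 53.5, 66.7 and 34.4 at 6 h in the same order. The fusion was the lowest column at each time, at 48.5% of PBS at 3 h and 60.9% at 6 h. On the log2 scale of FPKM + 1, used for every ratio below, these are -1.03 and -0.70. The gene lies on chromosome 17 of mm9 from 46683788 to 46693111. Of the cofactor genes, Mkl1 read 14.2, 13.4, 14.3 and 20.8 FPKM at 3 h and 16.8, 16.5, 16.6 and 20.1 at 6 h. The fusion was its highest column at both times, with log2 ratios of 0.52 and 0.24, but the row shares its locus with another gene, so reads of that neighbour may be mixed in. Mkl2 was much lower in level, at 4.11, 4.86, 4.81 and 2.85 FPKM at 3 h and 3.83, 3.86, 3.76 and 5.52 at 6 h. Its fusion column was the lowest at 3 h (-0.41) and the highest at 6 h (0.43).

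Across the 41 genes, 4 were at least 2-fold lower in the fusion than in PBS at 3 h: Actb, Srf, Myh9 and Fhl1. The same rule held for 4.42% of all genes tested. At 6 h again 4 were at least 2-fold lower, namely Actb, Tpm1, Tpm2 and Fhl1, against 3.34% of all genes. Actb and Fhl1 were past 2-fold at both times, as were 0.575% of all genes. None of the 41 was at least 2-fold higher at 3 h, where 6.13% of all genes were, or at 6 h, where 7.13% were. At 1.5-fold, 8 genes were lower at 3 h (background 14.5%) and 16 at 6 h (background 15.2%). The 1.5-fold higher genes were Arpc3 at 3 h (background 15.7%) and Fhl2 and Lima1 at 6 h (background 17.4%).

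**Figure D1:**
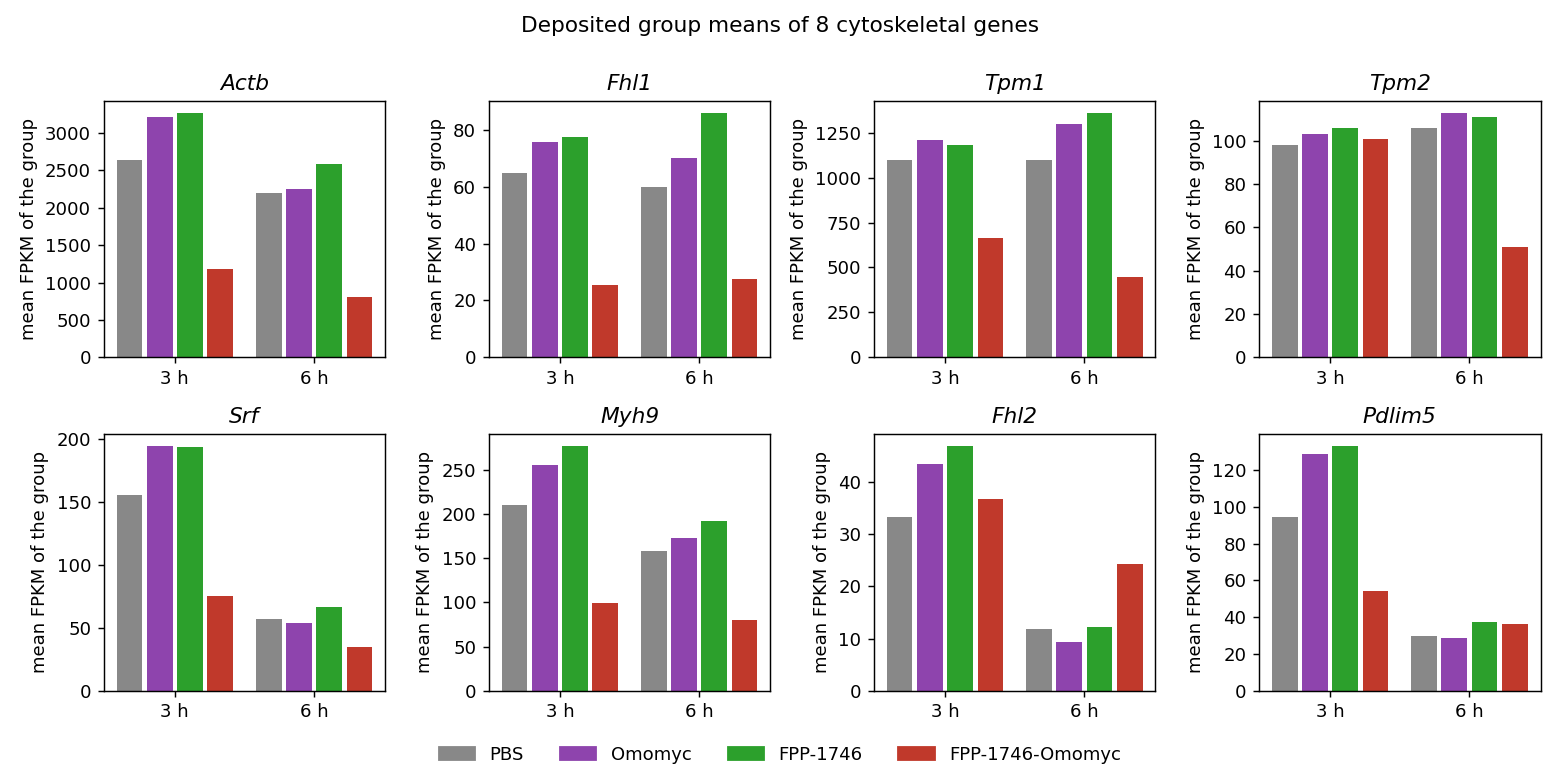
Mean FPKM of each group (vertical axis from 0) for 8 genes at 3 h and 6 h, 1 bar per treatment and no error bars since only group means were used. The fusion bar is the lowest of its time for Actb, Fhl1, Tpm1, Srf and Myh9 at both times. It is the lowest for Tpm2 only at 6 h, where it reads 51.0 FPKM, and for Pdlim5 only at 3 h (54.4 FPKM).

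The median log2 ratio of the 41 genes was -0.16 at 3 h, with 0.003 for all genes, and -0.49 at 6 h, with -0.026 for all genes. At 3 h 23 of the 41 lay below PBS (49.5% of all genes did), and at 6 h 33 (51.7%). The 3 h count depends on the scaling. It was 34 under quantile normalisation (52.8% of all genes) and 36 with every column brought to the same sum (67.0%). The 6 h count is 33 under both (53.9% and 47.5% of all genes). Level bears on this count. Of the 41, 26 had a mean of 100 FPKM or more, as 938 genes did in all. Those 938 had a median of 0.213 at 3 h and -0.288 at 6 h, and 74.9% of them lay below PBS at 6 h, beside 23 of the 26 actin-related ones. The medians of the 26 were -0.17 and -0.50. What part of the 6 h shift goes with high expression in general was not tested. Scaling matters at 3 h: when every column is brought to the same sum, the median of all genes at 3 h becomes -0.247 and that of the 41 becomes -0.44, so signs of small 3 h ratios depend on it.

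**Figure D2:**
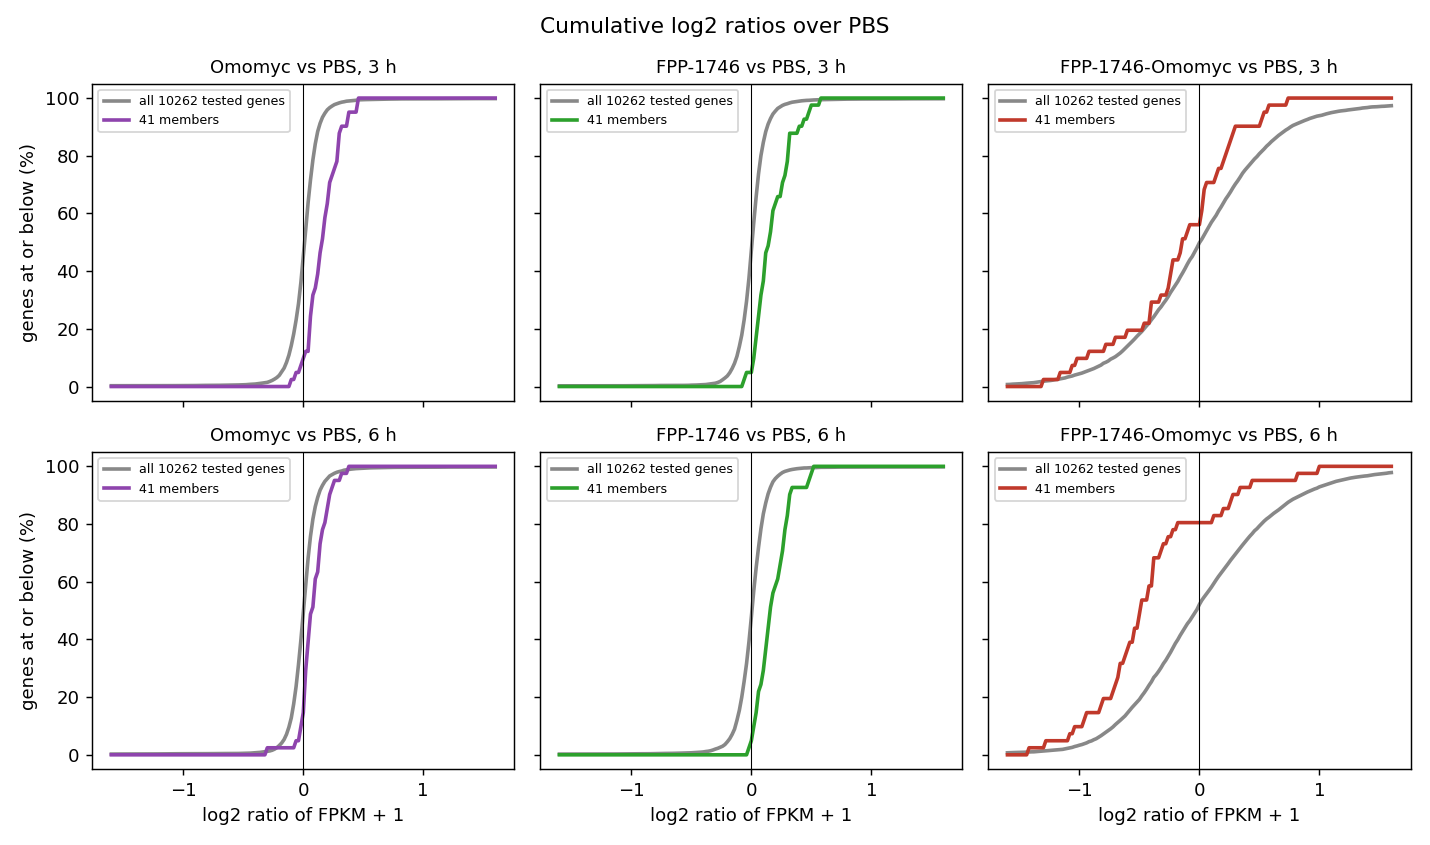
Percent of genes (vertical axis) at or below each log2 ratio of FPKM + 1 over PBS (horizontal axis), for the 41 genes in colour and all tested genes in grey, by treatment and time. For the fusion the coloured line lies left of the grey line over most of the 6 h panel (medians -0.49 and -0.026), and for Omomyc and FPP-1746 it lies to the right over most of each panel.

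**Figure D3:**
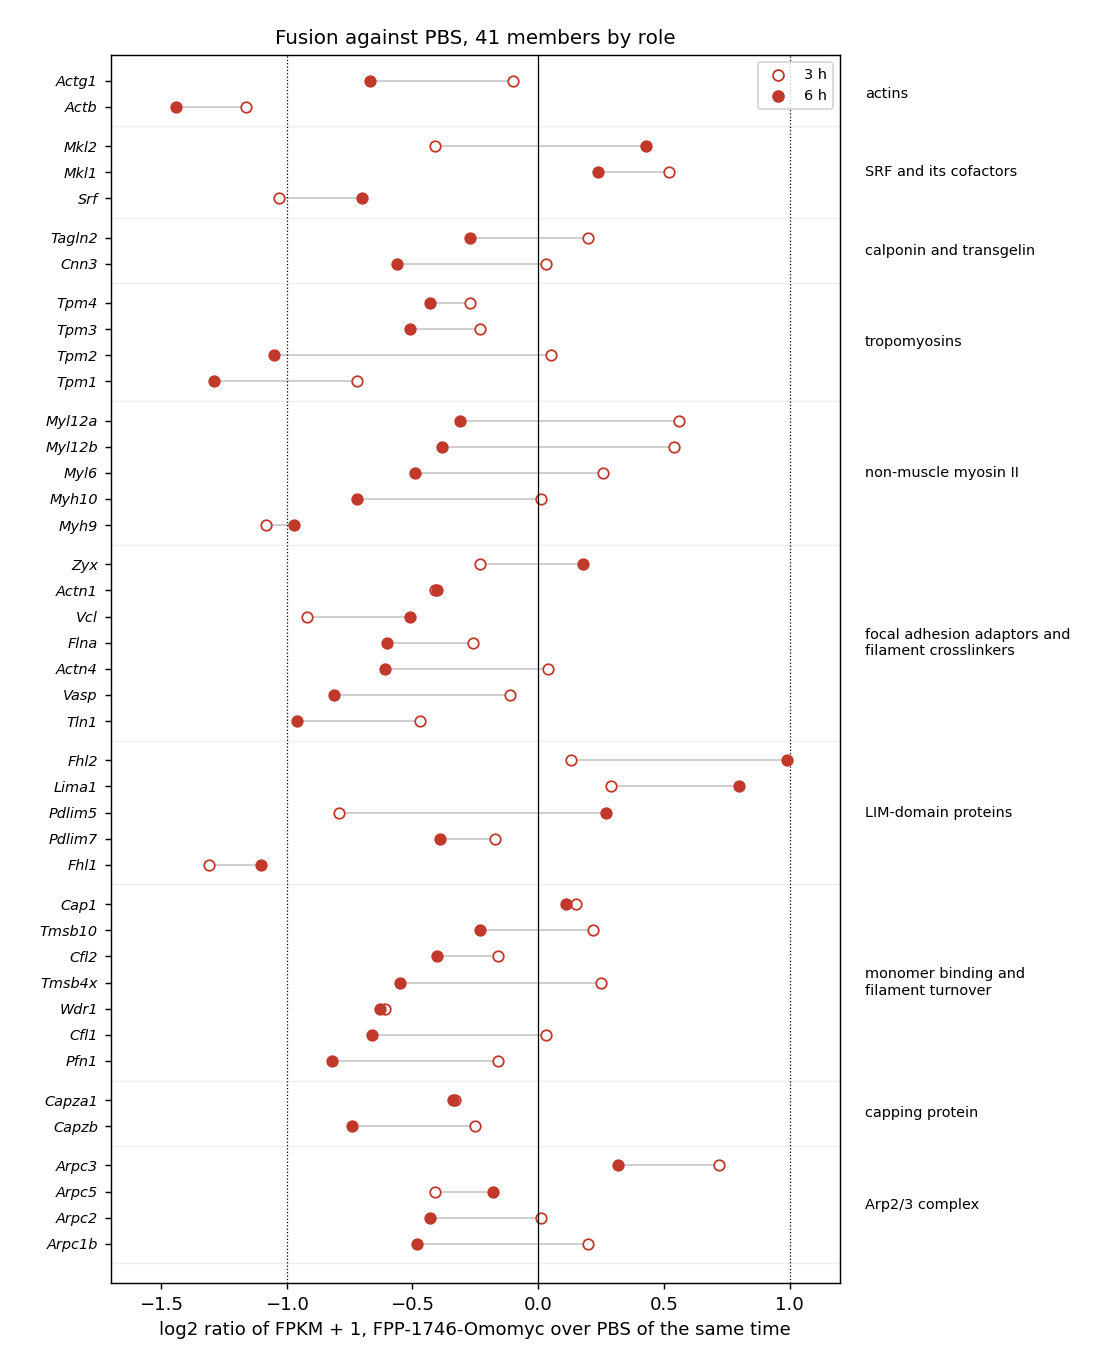
Log2 ratio of FPKM + 1, fusion over PBS of the same time (horizontal axis), for each of the 41 genes (vertical axis) by role, with open points for 3 h and filled points for 6 h. Dotted lines mark 2-fold, and at 6 h 33 of the 41 filled points are left of 0.

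Actb, which encodes the beta-actin of the cytoplasm, had the highest mean level of the 41 at 2268 FPKM and lies on chromosome 5 of mm9 from 143664795 to 143668403. It read 2634 FPKM in PBS, 3216 in Omomyc, 3273 in FPP-1746 and 1176 in the fusion at 3 h, and 2200, 2250, 2584 and 812 at 6 h. The fusion was at 44.6% and 36.9% of PBS, log2 ratios of -1.16 and -1.44. Actg1, the gamma-actin gene, is the other cytoplasmic actin. It read 20.1, 24.0, 20.6 and 18.7 FPKM at 3 h and 15.1, 17.1, 19.1 and 9.13 at 6 h, with ratios of -0.10 and -0.67. The fusion was the lowest column of each time for both actins. Actb stood 131-fold above Actg1 in PBS at 3 h and 62.9-fold in the fusion, and 145-fold and 88.9-fold at 6 h. Actin genes are close to each other in sequence and have processed copies, and how shared reads were assigned is not given in the sources used here, so the Actg1 level and this ratio are uncertain. Actb is often taken as a reference gene in assays of single transcripts, and its share of all FPKM was 0.541% in PBS and 0.198% in the fusion at 3 h. The sum of all FPKM that this share relates to was also larger in the fusion, 594951 against 486989 in PBS.

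Tropomyosins lie along the filament and control access of myosin and cofilin to it. Tpm1 was by far the most abundant of the 4, at 1096, 1210, 1182 and 666 FPKM in PBS, Omomyc, FPP-1746 and the fusion at 3 h and 1096, 1299, 1362 and 448 at 6 h. In the fusion it was at 60.7% and 40.9% of PBS, ratios of -0.72 and -1.29. Tpm2 read 98.1, 103, 106 and 101 FPKM at 3 h and 106, 113, 111 and 51.0 at 6 h. It thus stood level with PBS at 3 h (0.05) and at 48.0% of it at 6 h (-1.05, or -0.97 and so short of 2-fold with columns at the same sum). Tpm3 and Tpm4 had ratios between -0.23 and -0.51 over both times. Tpm4 read 429, 461, 447 and 356 FPKM at 3 h and 412, 445, 489 and 305 at 6 h. Its ratio of -0.43 was the highest of the 4 at 6 h, after -0.27 at 3 h. All 4 tropomyosin genes lay below PBS at 6 h, with a median of -0.78. Tpm1 lies on chromosome 9 of mm9 from 66870400 to 66897020 and Tpm2 on chromosome 4 from 43527584 to 43536260. The Tpm genes make many isoforms by splicing, which a value per gene does not separate. Calponin and transgelin also bind along the filament side. Cnn3 read 634, 731, 716 and 648 FPKM at 3 h and 570, 655, 682 and 387 at 6 h, ratios of 0.03 and -0.56. Tagln2 read 928, 1049, 1040 and 1065 FPKM at 3 h and 937, 1070, 1141 and 778 at 6 h, ratios of 0.20 and -0.27. Both were lowest in the fusion at 6 h, while their 3 h ratios are below 0 with columns at the same sum (-0.26 and -0.09).

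Non-muscle myosin II is built from heavy chains, regulatory light chains and essential light chains, and the chains differed from each other at 3 h. Myh9, the heavy chain of myosin IIA (chromosome 15 of mm9, 77591019 to 77672545), read 210, 256, 277 and 99.0 FPKM at 3 h and 158, 173, 192 and 80.3 at 6 h, ratios of -1.08 and -0.97 for the fusion. Myh10, the heavy chain of IIB, was at 25.7 FPKM in PBS and 25.9 in the fusion at 3 h (0.01) and at 24.6 and 14.6 at 6 h (-0.72). Myh9 was 8.16-fold above Myh10 in PBS at 3 h and 3.82-fold in the fusion. The regulatory light chain gene Myl12a read 575, 593, 558 and 851 FPKM at 3 h and 544, 552, 589 and 438 at 6 h. Its fusion column was the highest at 3 h (0.56) and the lowest at 6 h (-0.31). Its near copy Myl12b did likewise (0.54 and -0.38), and reads may be split between the pair. Myl6, an essential light chain gene, had ratios of 0.26 and -0.49. Under quantile normalisation the 3 h ratio of Myl12a is -0.01, and with columns at the same sum that of Myl6 is -0.02, so the 3 h direction of both rests on the scaling. That of Myl12b ran from 0.25 to 0.54 over the alternatives.

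Focal adhesion adaptors link integrins to actin. Vcl, for vinculin, which strengthens the link under tension, read 223, 287, 302 and 117 FPKM at 3 h and 131, 170, 181 and 91.6 at 6 h. It had the lowest 3 h ratio of its role, -0.92, and -0.51 at 6 h. Tln1, for talin, which activates integrins, read 56.6, 65.1, 70.1 and 40.5 FPKM at 3 h and 50.4, 53.7, 58.5 and 25.4 at 6 h, where its ratio of -0.96 was the lowest of the role. Zyx, for zyxin, a LIM protein that repairs strained fibres, read 318, 391, 396 and 271 FPKM at 3 h and 164, 163, 181 and 187 at 6 h. It was the 1 gene of the 7 in this role with a 6 h ratio above 0 (0.18), after -0.23 at 3 h. The highest 3 h ratio of the role, 0.04, was that of the alpha-actinin gene Actn4, at 221, 243, 239 and 227 FPKM at 3 h and 220, 229, 253 and 144 at 6 h. This row shares its locus with another gene, and its 3 h ratio is -0.25 with columns at the same sum. Vasp, which speeds filament growth, Flna, which crosslinks filaments, and Actn1, which bundles them, had ratios between -0.11 and -0.81 over both times.

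The log2 ratios of fusion to PBS of the 5 LIM-domain genes ranged from -1.31 to 0.29 at 3 h and from -1.10 to 0.99 at 6 h. Fhl1, a LIM-only scaffold protein gene on chromosome X of mm9 from 53984964 to 54046523, read 64.7, 75.8, 77.4 and 25.5 FPKM at 3 h and 60.0, 70.2, 86.0 and 27.6 at 6 h. It was at 39.4% and 45.9% of PBS in the fusion, and its 3 h ratio of -1.31 was the lowest of all 41 (6 h, -1.10). Its relative Fhl2, a cofactor of several transcription factors, read 33.4, 43.4, 46.9 and 36.7 FPKM at 3 h and 11.8, 9.24, 12.2 and 24.3 at 6 h. At 6 h the fusion column was the highest, with a ratio of 0.99, the highest of the 41. Lima1, which bundles filaments and slows their turnover, read 46.7, 64.0, 69.6 and 57.2 FPKM at 3 h and 21.8, 24.1, 24.7 and 38.8 at 6 h, ratios of 0.29 and 0.80. Against the mean of PBS, Omomyc and FPP-1746 in place of PBS, the 3 h ratios of Fhl2 and Lima1 are -0.16 and -0.07. Pdlim5, a PDZ and LIM adaptor on alpha-actinin, read 94.6, 129, 133 and 54.4 FPKM at 3 h and 29.7, 28.9, 37.5 and 36.0 at 6 h, ratios of -0.79 and 0.27. Pdlim7 lay below PBS at both times (-0.17 and -0.39).

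The 7 genes of proteins that hold monomers or turn filaments over had a median ratio of 0.03 at 3 h, or -0.28 under quantile normalisation, and of -0.55 at 6 h. Pfn1, for profilin, which feeds monomers to growing ends, read 1786, 1859, 1825 and 1600 FPKM at 3 h and 2000, 2008, 2032 and 1129 at 6 h, ratios of -0.16 and -0.82. Cfl1, for cofilin, which severs old filaments, read 1181, 1230, 1221 and 1203 FPKM at 3 h and 1182, 1192, 1253 and 747 at 6 h, ratios of 0.03 and -0.66. Tmsb4x, for thymosin beta-4, the main store of monomers, read 1139, 1375, 1403 and 1351 FPKM at 3 h and 1167, 1439, 1628 and 798 at 6 h, ratios of 0.25 and -0.55. The 3 h ratios of Cfl1 and Tmsb4x are below 0 under quantile normalisation (-0.53 and -0.25), while their 6 h ratios kept their sign in every alternative. Cfl1 stood at 0.448 of Actb in PBS and at 1.02 of it in the fusion at 3 h, and at 0.537 and 0.920 at 6 h. Wdr1, which aids cofilin, was the lowest of the role at 3 h, with 352, 408, 406 and 230 FPKM and then 298, 324, 362 and 192 at 6 h (-0.61 and -0.63). Cap1, which recharges monomers, was the 1 gene of the 7 above PBS at 6 h, with 164, 182, 177 and 182 FPKM at 3 h and 160, 167, 177 and 173 at 6 h (0.15 and 0.11). Cfl2 and Tmsb10 lay between these.

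Capping protein closes the fast-growing end of a filament. Its beta subunit gene Capzb read 208, 217, 218 and 175 FPKM at 3 h and 207, 215, 223 and 124 at 6 h, ratios of -0.25 and -0.74. Capza1, an alpha subunit gene, was far less abundant, at 14.6, 14.2, 14.6 and 11.4 FPKM at 3 h and 13.7, 13.6, 14.4 and 10.6 at 6 h. Its ratios were -0.33 and -0.34. Another alpha subunit gene, Capza2, is outside the 41 and did not lie below PBS in the fusion as deposited. It read 155 FPKM in PBS and 170 in the fusion at 3 h (0.13), and 153 and 172 at 6 h (0.17). The Arp2/3 complex nucleates branches, and its 4 listed subunits differed from each other. Arpc3 read 152, 154, 159 and 252 FPKM at 3 h and 151, 152, 155 and 189 at 6 h. Its ratios of 0.72 and 0.32 stayed above 0 in every alternative tried, and 0.72 was the highest 3 h ratio of the 41. Arpc1b read 144, 133, 137 and 166 FPKM at 3 h and 139, 139, 139 and 99.1 at 6 h (0.20 and -0.48). Arpc5 read 116, 130, 128 and 87.3 FPKM at 3 h and 96.5, 105, 116 and 84.9 at 6 h (-0.41 and -0.18). Arpc2 had ratios of 0.01 and -0.43. Arpc3 stood at 0.572 of Arpc2 in PBS and 0.939 in the fusion at 3 h.

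Neither peptide alone took any of the 41 genes past 2-fold against PBS. The same rule held in either direction for 0.614% of all genes with FPP-1746 and 0.614% with Omomyc at 3 h, and for 0.555% and 0.682% at 6 h. Most of the 41 lay slightly above PBS instead. With FPP-1746, 39 of the 41 were above PBS at 3 h (52.8% of all genes) and 39 at 6 h (52.3%), with a median log2 ratio of 0.15 at each time. With Omomyc, 37 were above PBS at 3 h (54.9%) and 35 at 6 h (50.7%), with medians of 0.15 and 0.07. The medians of all genes were between 0.001 and 0.011 in these 4 comparisons. Level bears on these counts too. Among all genes at 100 FPKM or more, 69.6% (FPP-1746) and 70.4% (Omomyc) were above PBS at 3 h. At 6 h these shares were 62.2% and 51.7%. Of the 26 members at that level, 24 and 25 were above PBS at 3 h, and 26 and 24 at 6 h. At 3 h the highest ratio was that of Lima1 with each peptide, 0.57 with FPP-1746 and 0.45 with Omomyc. At 6 h it was Fhl1 with FPP-1746 (0.51) and Vcl with Omomyc (0.37). Both peptides are set against the same PBS samples at each time, so these counts are not independent of each other.

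Set against a peptide alone, the fusion showed more of the genes past 2-fold than against PBS. Against FPP-1746, 6 genes were lower at 3 h (background 4.01%), namely Actb, Srf, Myh9, Vcl, Fhl1 and Pdlim5. At 6 h 7 were lower (background 3.21%), namely Actb, Tpm1, Tpm2, Myh9, Tln1, Fhl1 and Tmsb4x. Against Omomyc, 6 were lower at 3 h (background 3.76%) and 6 at 6 h (background 3.07%), and 1, Fhl2, was higher at 6 h (background 6.59%). Fhl1 had the lowest ratio at 3 h, -1.56 against FPP-1746 and -1.53 against Omomyc. At 6 h the lowest were Actb against FPP-1746 (-1.67) and Tpm1 against Omomyc (-1.53). These comparisons and those with PBS share the fusion samples.

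Some of the genes differed between 3 h and 6 h in PBS itself. Srf (-1.44), Fhl2 (-1.43), Pdlim5 (-1.64) and Lima1 (-1.07) were at least 2-fold lower at 6 h than at 3 h in PBS, 4 of 41, and the same held for 0.487% of all genes. None of the 41 was 2-fold higher (background 0.380%). Zyx (-0.95) and Vcl (-0.76) came next, while the median of the 41 was -0.08 and that of all genes -0.008. The 7 genes with a CArG box had a median of -0.76 and the 33 without a median of -0.06, and Pdlim5 and Zyx are among those without. In the fusion against PBS the medians of the same 7 and 33 were -0.10 and -0.16 at 3 h and -0.51 and -0.43 at 6 h. In FPP-1746 and in Omomyc 5 genes were past 2-fold between the times, Srf, Zyx, Fhl2, Pdlim5 and Lima1 in each (background 0.770% and 0.789%). Under the fusion 1 was, Srf at -1.11 (background 4.92%), while Fhl2, Pdlim5 and Lima1 had ratios of -0.58, -0.58 and -0.55. The 6 h ratios of Fhl2, Lima1 and Pdlim5 over PBS, which are above 0, use this lower PBS column at 6 h. Under the fusion, 39 of the 41 were lower at 6 h than at 3 h (51.7% of all genes), with a median of -0.52, the exceptions being Fhl1 (0.11) and Mkl2 (0.76). This too depends on the scaling. With columns at the same sum 26 were lower (30.4% of all genes), with a median of -0.11. The median of all genes then becomes 0.335, and Srf is no longer past 2-fold. Under quantile normalisation 25 were lower (50.3% of all genes), with a median of -0.05, and -0.004 for all genes. Level bears on the fall as well. Of all genes with a mean of 100 FPKM or more, 85.2% were lower at 6 h than at 3 h under the fusion. Their median was -0.555 as deposited, and the 26 members at that level, all lower, had a median of -0.51. What part of the fall goes with high expression in general was not tested. Tpm2 (-0.98), Myl12a (-0.96), Myl12b (-1.00), Actg1 (-0.96) and Vasp (-0.92) were lowest after Srf, against PBS differences of 0.12, -0.08, -0.08, -0.38 and -0.22.

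**Figure D4:**
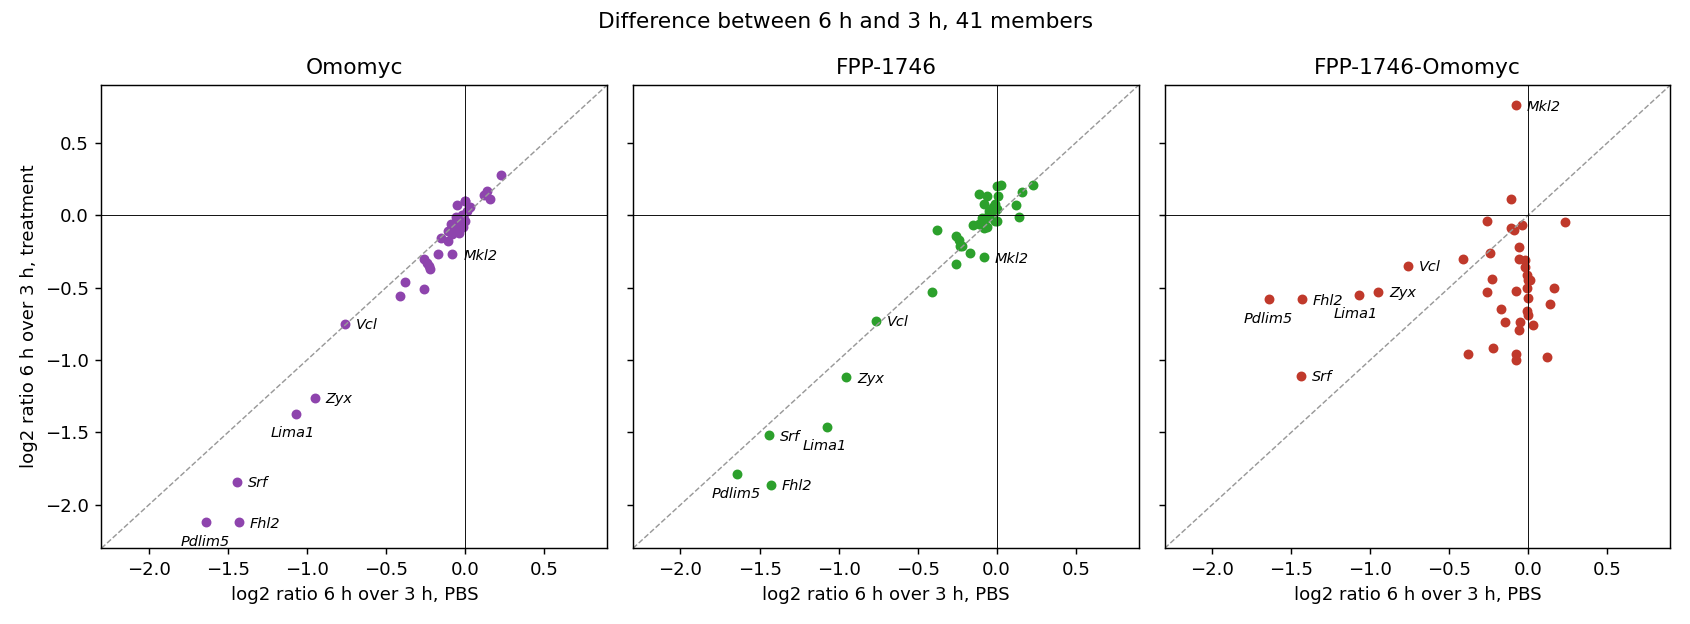
Log2 ratio of FPKM + 1, 6 h over 3 h, in each treatment (vertical axis) against the same in PBS (horizontal axis) for the 41 genes, with a dashed line where both are equal. In Omomyc and FPP-1746 most points lie near the line, with Pdlim5, Fhl2 and Srf lowest. Under the fusion most points with a PBS value near 0 lie below 0 (median -0.52 as deposited). All genes at 100 FPKM or more had a median of -0.555 there.

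Summed, the 41 genes made up 3.03% of all FPKM in PBS at 3 h, 3.39% in Omomyc, 3.38% in FPP-1746 and 2.15% in the fusion. At 6 h the shares were 2.94%, 3.16%, 3.36% and 1.94%. The fusion had the lowest share at each time, and the highest means over all columns were those of Actb (2268 FPKM), Pfn1 (1780), Tmsb4x (1287), Cfl1 (1151) and Tpm1 (1045). The sums of all FPKM per column ran from 445657 to 594951, with the fusion at 3 h the highest. For a transcript of 2000 bases, 1 FPKM was roughly 66.3 to 107 fragments, counted over the 3 libraries of a group together, since each column is their mean. This is a rough figure read from the step between low values, which 9 to 18 genes per column set out of 797 looked at. The summed smooth muscle and myoepithelial markers ran from 13.7 to 143 FPKM, nearly all Acta2, with Krt5 listed at 0 and Myh11 near 0. The summed macrophage markers ran from 11.2 FPKM in PBS at 3 h to 121 in the fusion at 6 h, nearly all Cd14, with Emr1 listed at 0. Their part in the values above was not tested.

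Other genes of the same pathways were read from lists of genes outside the 41. Over all genes tested, 6.13% were at least 2-fold higher and 4.42% lower in the fusion than in PBS at 3 h, and 7.13% and 3.34% at 6 h. Of 13 further Arp2/3 subunits and activators none was past 2-fold in the fusion against PBS at either time, and the medians were -0.14 and -0.26. Arpc4 (-0.41) and Actr3 (-0.37) were lowest at 3 h, Arpc1a (-0.64) and Actr3 (-0.57) at 6 h, and Wasl, an activator of the complex, was highest at both times (0.53 and 0.56). Abi1 (0.23) was second highest at 3 h and Wasf2 (0.41) at 6 h.

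Of 17 further focal adhesion genes at the minimum level, 1 was past 2-fold higher and 1 lower at 3 h, and 1 higher and 2 lower at 6 h, with a median of -0.20 at each time. A count of 1 in 17 is near the shares over all genes. Tgfb1i1 (-1.35) and Lpp (-0.69) were lowest at 3 h. At 6 h they were Ilk (-1.25), the pseudokinase that joins integrins to parvin, and Rsu1 (-1.10), which binds the same complex. Nedd9 (1.56 and 2.23) and Tes (0.59 and 0.66) were highest at both times. Of 18 further capping, severing and bundling genes at the minimum level, 1 was higher and 2 lower at each time, with medians of -0.13 and -0.30. Fscn1, for fascin, which bundles filaments in protrusions, was low at both times (-1.01 and -1.09), with Twf1 lowest at 3 h (-1.05) and Pfn2 next at 6 h (-1.06). Ezr, for ezrin, which ties filaments to the membrane, was highest (1.12 and 1.45), followed by Gsn at 3 h (0.70) and Tmod3 at 6 h (0.57).

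Known SRF targets outside the 41 split. Of 17 at the minimum level 8 were at least 2-fold higher and 5 lower at 3 h, and 8 higher and 7 lower at 6 h. This list holds genes already known to move in these data, so its counts are no independent support. Fos (6.90 and 4.38) and Fosb (5.61 and 4.25), immediate early genes, were highest at both times, with Fos at 0.432 FPKM in PBS and 170 in the fusion at 3 h. Myl9 (-1.74 and -2.35), a smooth muscle myosin light chain gene, Actg2 (-1.52 at 3 h) and Acta2 (-2.59 at 6 h) were lowest. The medians of 0.88 and 0.93 thus lie between an upper and a lower set and describe neither.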

How the data were processed

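RNA-seq of 24 mouse T11 samples was used as 1 deposited table of FPKM. The authors made the deposited FPKM values and averaged the 3 replicates of each of 8 groups before deposit, as the name of the table says, and the unit is given per the file headers, and 0 further sample columns were left unused. Reads were handled with Cuffnorm 2.2.1, Cufflinks 2.2.1, STAR 2.1.3 and bcl2fastq 2.17.1.14 on mm9, per the submitters' processing notes. The order of steps, library scaling and strand counting were not given in the sources used here, so overlapping genes cannot be told apart.

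Ratios are log2 of FPKM + 1, a pseudocount that shrinks ratios of low genes. A gene was tested, meaning counted, at a mean of 1 FPKM, and called at 2-fold. With 1 column per group there is no spread, test or p-value. The members, the roles and the pathway lists were chosen with earlier results of these data known. Values in all 8 columns are given for members past 2-fold in the fusion against PBS, for the highest and lowest ratio of each role, and for the 5 highest means. Of each pathway list the 2 highest and 2 lowest ratios are named, and Capza2 is given beside Capza1. One pathway list is not reported here. Other members are given by ratio, range or count.

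Promoters are RefSeq sequences of GRCm38.p6, and no coordinate was carried between builds. Alternatives changed the pseudocount (0.1 or 5), the minimum mean, the fold (1.5 or 3), the scaling, the reference and rows with a shared locus. A minimum of 100 FPKM was added after seeing the data. Python 3.11.15, pandas 2.3.3, numpy 2.4.6 and matplotlib 3.10.9 were used, and the counting code was tested on simulated data.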

Additional observations from a re-analysis of the deposited data

Results flagged for a closer look

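For 5 of the 41 genes the mean of the fusion lay on opposite sides of PBS at the 2 times, by at least 0.25 on the log2 scale each time. Each group is 1 mean, so no test of this difference could be made. The share of all genes that did so was not counted, so no background can be given. Mkl2 had -0.41 at 3 h and 0.43 at 6 h, at 2.85 to 5.52 FPKM. Pdlim5 had -0.79 at 3 h and 0.27 at 6 h, with its PBS mean at 94.6 FPKM at 3 h and 29.7 at 6 h. The myosin light chain genes went the other way, Myl6 with 0.26 and -0.49, Myl12a with 0.56 and -0.31, and Myl12b with 0.54 and -0.38. All genes with a mean of 100 FPKM or more, the level of these light chain genes, had medians of 0.213 and -0.288. What part of the light chain pattern goes with level was not tested. With columns at the same sum the 3 h ratio of Myl6 is -0.02, and under quantile normalisation that of Myl12a is -0.01.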

How the results depend on the processing

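No paired analysis was possible because the table holds only group means. For the same reason no replicate could be left out. Signs of single members were followed for the fusion over PBS and between the PBS times. No such ratio past 2-fold changed sign under any alternative. No 6 h ratio of the fusion over PBS changed sign for any member. A pseudocount of 5 left 2 members 2-fold lower at 6 h (1.48% of all genes), with Tpm2 at -0.99 and Fhl1 at -1.00. It also put Srf at -1.00 at 3 h and Lima1 at -0.95 between the PBS times. A pseudocount of 0.1, columns at the same sum, and the mean of PBS, Omomyc and FPP-1746 as reference each gave 1 member 2-fold higher at 6 h, Fhl2. Over all genes, 934, 869 and 694 of 10262 were 2-fold higher there, in the same order. At 1.5-fold, 8 members were lower (14.5% of all genes) and 1 higher (15.7%) at 3 h. At 6 h 16 were lower (15.2%) and 2 higher (17.4%). The same fold called 13 (3 h) and 25 (6 h) against FPP-1746 and 13 and 23 against Omomyc. At 3-fold, 0 were lower than PBS at either time (0.731% and 0.741% of all genes). Between the PBS times 1 was lower at 3-fold (0.234%). At 3-fold 0 were called against Omomyc at either time, and 0 and 3 against FPP-1746. For the comparisons with a peptide the share of all genes at 1.5-fold and 3-fold is not given here, so these counts stand without a background. Quantile normalisation moved the medians to -0.36 and -0.37. Columns at the same sum gave 7 lower members (8.84% of all genes) and a median of -0.44 at 3 h, and put Tpm2 at -0.97 at 6 h. Between the fusion times, tried after seeing the data, quantile normalisation gave a median of -0.05 with 25 members below 0 (50.3% of all genes). Columns at the same sum gave a median of -0.11 with 26 below 0 (30.4%). With either peptide against PBS, also tried after seeing the data, 31 to 38 members lay above PBS under those 2 scalings (43.2% to 52.1% of all genes). Columns at the same sum put the share of higher among all genes called in the fusion against PBS at 3 h at 31.0%. It was 58.1% as deposited and 55.5% under quantile normalisation. A minimum of 100 FPKM, chosen after seeing the data, left 2 lower at 6 h (3.94% of all genes at that level). It left 1 lower between the PBS times (1.71%). At 6 h it left 4 called against FPP-1746 and 3 against Omomyc, for which no share of all genes was counted. These counts are smaller since fewer members entered. The cause of the other changes was not tested. At 3 h the role medians of the Arp2/3 complex, calponin and transgelin, myosin II and filament turnover were above 0 as deposited and below 0 under quantile normalisation and at the same sum. At 6 h the median of SRF and its cofactors was 0.24, and -0.23 with a minimum mean of 10 FPKM.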
